A study of Mus musculus with 15 samples.

Results

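The genes described are 10 members of the fibroblast growth factor (FGF) and epidermal growth factor (EGF) signalling pathways, out of 18193 genes measured: Fgf1, Fgf12, Fgfr1, Fgfr2, Fgfr3, Egfr, Etv4, Etv5, Spry2 and Spry4. They were taken by name from the platform annotation, and each was read from its brightest probe set over all 15 arrays, with the gene's other probe sets as a cross-check. These genes, and the gene lists used below, were chosen with earlier results of these data known. Their shares beside those of all genes are therefore a description only. The arrays hold astroglia sorted from 3 regions of the adult mouse brain, with 5 arrays each for hippocampus, cerebellum and the subventricular zone (SVZ) beside the lateral ventricle. All mice were males of 6 to 8 weeks with the genotype Gli1-CreER;GFAP-GFP;R26tdTomato, and all received tamoxifen (2 doses of 10 mg) 3 weeks before the sort. Gli1-CreER acts in cells that answer Sonic hedgehog and switches on tdTomato for good, GFAP-GFP is driven by an astroglial promoter, and cells carrying both labels were collected. Every array is a pool of 10 to 12 mice, and no unsorted or untreated group was used here. The series design sets each of the other regions against the cerebellum, the one of the 3 that is not known for adult neurogenesis. The labels do not say whether pools of different regions or numbers came from separate mice, so p-values measure only the spread between these pools, which may be technical.

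FGF and EGF ligands act through receptor tyrosine kinases, which pass the signal through adaptor proteins to RAS and the MAP kinase (MAPK) cascade. The cascade induces the ETS transcription factors Etv4 and Etv5 and the Sprouty genes, whose products restrain the same cascade. Both ligand families are classic mitogens of neural stem cells, Egfr is known for its expression in activated stem cells and transit amplifying cells of the SVZ, and Fgfr3 is a gene of astrocytes.

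Against the cerebellum, the hippocampal cells had less Fgf1, a secreted ligand, and less Fgfr2, a receptor, each about 5-fold, and the SVZ cells had less Fgf12, an intracellular FGF. In the hippocampus the log2 differences were -2.37 ± 0.38 (SE) for Fgf1 and -2.41 ± 0.52 for Fgfr2, and in the SVZ the difference was -1.65 ± 0.37 for Fgf12 (5 arrays per region). Calls here are adjusted p-values under 0.05 from limma, with Benjamini-Hochberg adjustment over all genes. Against the cerebellum 1 of the 10 genes was called in the SVZ, lower, where 5.51% of all genes were called and 4.47% were called lower, and 4 of 10 had an unadjusted p under 0.05, beside 21.1% of all genes. In the hippocampus 2 of 10 were called, both lower, beside 4.78% of all genes called and 3.97% called lower, and 5 of 10 passed unadjusted, beside 20.1%. Of all calls, 18.8% in SVZ and 16.9% in hippocampus were higher than in cerebellum, and after quantile normalization 35.0% and 31.5% were. Both comparisons use the same cerebellum arrays. Between SVZ and hippocampus 0 of 10 were called by limma, beside 0.022% of all genes (0.0165% higher and 0.0055% lower), while 4 of 10 had an unadjusted p under 0.05 (Fgf1, Fgfr2, Egfr and Etv5, each with a higher mean in the SVZ), as did 7.02% of all genes. The median difference over the 10 genes was -0.52 in SVZ against cerebellum, -0.82 in hippocampus against cerebellum and 0.56 in SVZ against hippocampus, beside 0.07, 0.07 and -0.004 over all genes.

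**Figure D1:**
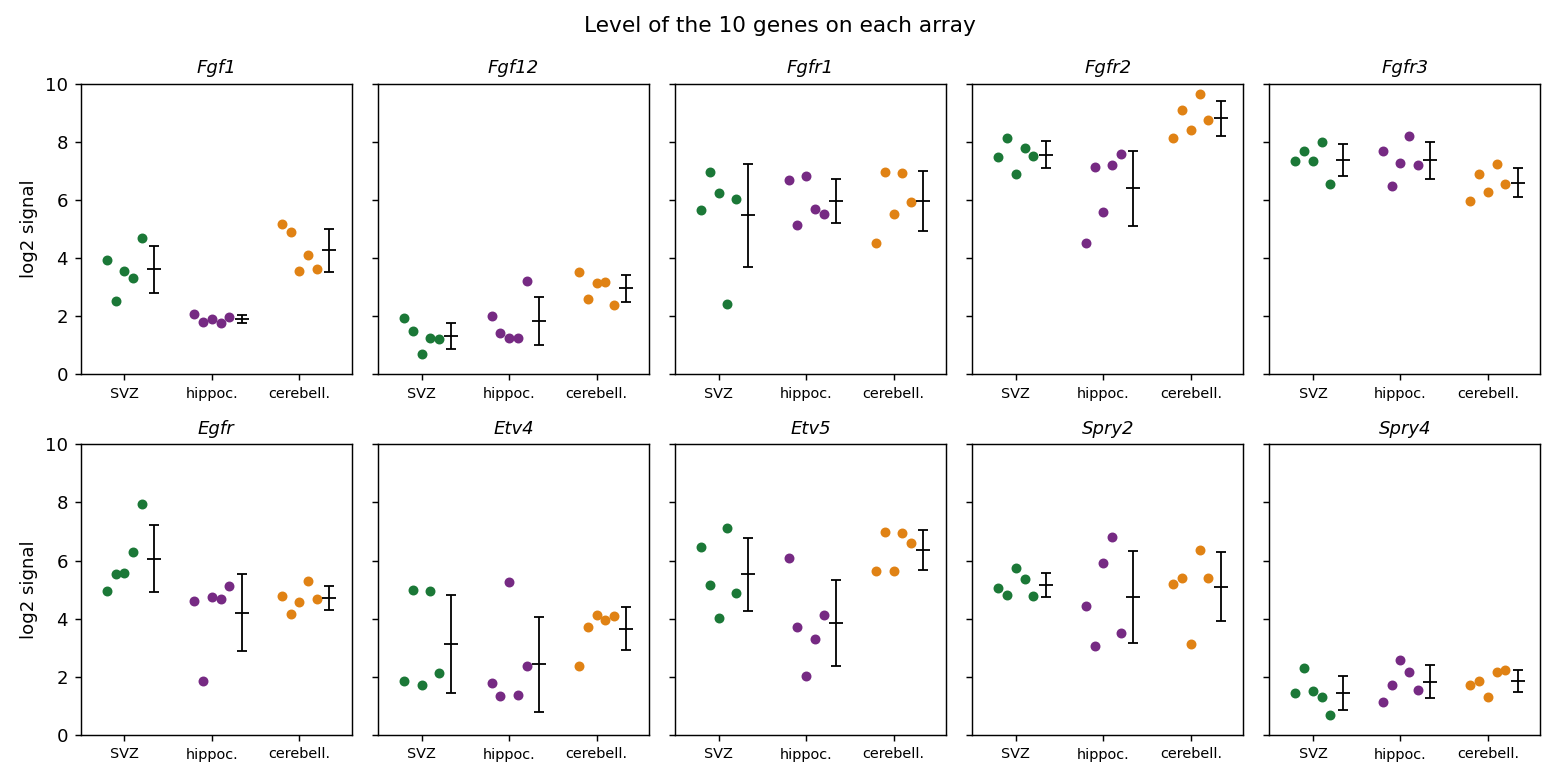
Log2 signal of each of the 10 genes (vertical axis) in the 5 arrays of each region, with points for arrays and lines for the region mean and SD. Fgf1 in the hippocampus lies between 1.76 and 2.06, below all arrays of the other regions, and Fgfr2 is higher in all cerebellum arrays than in any hippocampus array.

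**Figure D2:**
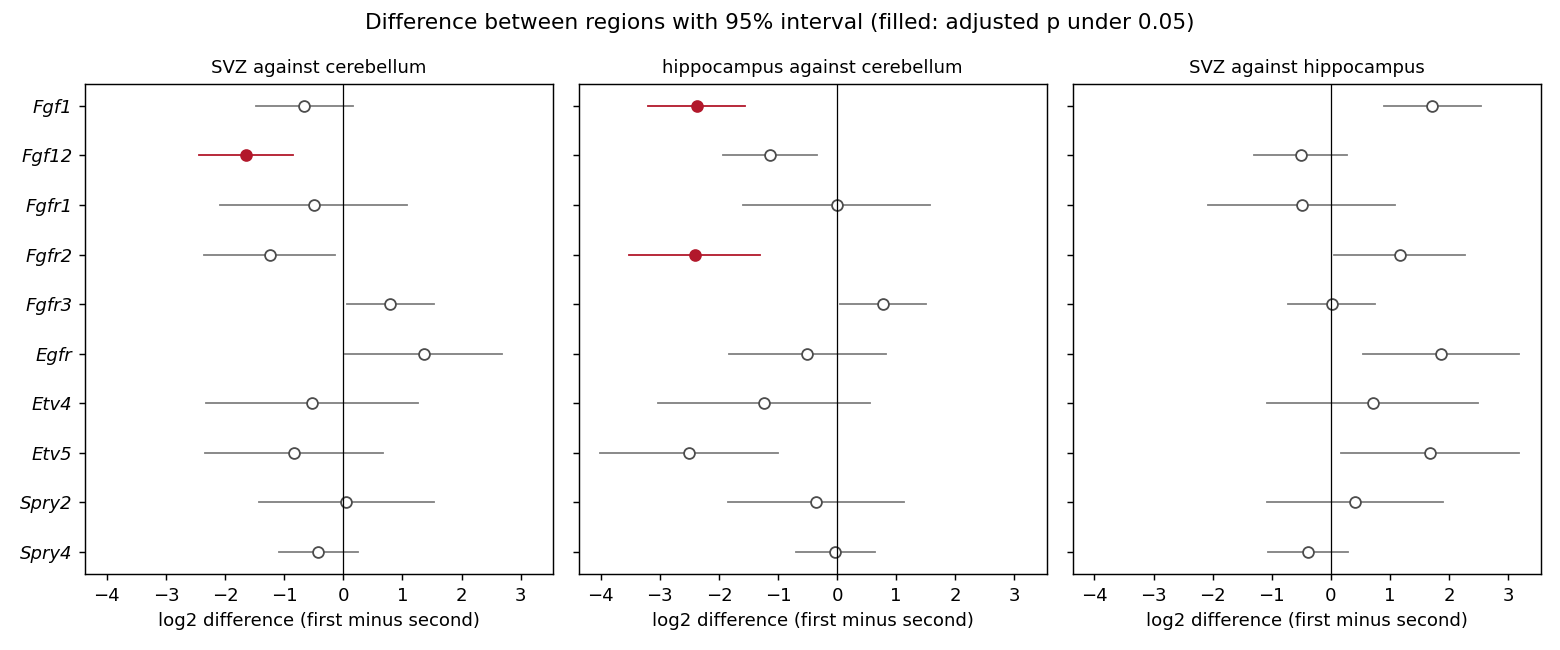
Log2 difference between regions for each gene (horizontal axis) with its 95% interval, in the 3 comparisons, with called differences marked. Fgf1 and Fgfr2 in hippocampus against cerebellum and Fgf12 in SVZ against cerebellum are the called ones, all below 0.

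Values are deposited log2 signals, and array medians over all probe sets lay between 1.12 and 1.31, so a gene near those values has no level that stands apart from the dim bulk of the array. Of the genes behind the sort, Gli1 averaged 2.80 in SVZ, 2.83 in hippocampus and 3.17 in cerebellum. Gfap averaged 4.51, 6.93 and 4.99, and its hippocampus arrays were above every array of the other regions, 3.83-fold above cerebellum (limma adjusted p = 0.0843) and 5.36-fold above SVZ (adjusted p = 0.364, unadjusted p = 0.00114), differences that did not pass after adjustment. Arrays of one region resembled each other less in SVZ (r across genes of 0.594 to 0.786) and hippocampus (0.640 to 0.780) than in cerebellum (0.869 to 0.937), and the spike-in RNA controls averaged 12.6 ± 0.86 (SD), 12.5 ± 0.59 and 10.3 ± 1.7. The spike-in level thus went largely with region. A fit with that level as a covariate, used below, cannot separate it from region, so a call lost there decides nothing either way. The summed signal of 12 astrocyte markers, on a log2 scale, ranged from 13.0 to 13.7 in SVZ, 12.5 to 13.6 in hippocampus and 13.7 to 14.5 in cerebellum, with 3 and 4 of the 12 called lower than in cerebellum and 1 and 0 called higher. Slc1a3, S100b and Fabp7 were lower in both and Aldoc in hippocampus, and Glul was higher in SVZ. Fabp7 (9.59, 9.34 and 12.0) and Slc1a3 (9.96, 9.64 and 11.8) were the brightest in cerebellum. Slc1a2 (10.5, 10.5 and 9.77) had its lowest mean there and did not pass. Microglial markers ranged from 9.00 to 12.2, 7.73 to 11.0 and 4.96 to 7.30 (4 and 2 of 11 called higher, Csf1r among them in both). The brightest were Laptm5 (9.09, 7.90 and 4.18) and Csf1r (8.88, 7.76 and 3.54). Cx3cr1 had lower means (2.93, 2.04 and 1.32). Itgam (0.98, 0.82 and 0.68), P2ry12 (1.52, 1.98 and 1.54) and Trem2 (1.20, 1.27 and 0.99) were dim in all regions. Oligodendrocyte markers ranged from 7.93 to 8.91, 6.82 to 8.11 and 9.97 to 10.4 (1 of 8 called lower in each). That sum was mostly Cnp, the gene called, at 8.15, 7.20 and 10.2, whereas the myelin genes Mbp (4.76, 2.55 and 2.39) and Mobp (3.04, 2.09 and 1.49) had their highest means in SVZ and did not pass. The rest of that list was dim, with means of 0.79 to 2.00. Mog, Cldn11, Opalin and Ermn had their highest means in hippocampus, and Mag in cerebellum. Oligodendrocyte precursor markers ranged from 6.10 to 7.47, 5.58 to 6.57 and 3.60 to 3.83 (2 and 1 of 6 called higher). In SVZ and hippocampus that sum was mostly Olig1, which averaged 6.27, 5.77 and 1.75. Means were lower for Cspg4 (2.80, 1.42 and 1.09), Olig2 (1.89, 1.47 and 0.86) and Sox10 (1.76, 1.33 and 1.02). Pdgfra (1.24, 1.48 and 1.04) and Gpr17 (1.07, 0.68 and 0.77) were dim in all regions. The part of these cell types in the results on the 10 genes was not tested. In sorted pools, fewer cells of a type and less RNA per cell cannot be told apart.

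The promoters of a receptor gene called lower in hippocampus (Fgfr2), of the EGF receptor gene (Egfr) and of an ETS factor gene that the cascade induces (Etv5) are shown as examples of the sequence before these genes, each as the 250 bases before a transcription start in the RefSeq annotation of GRCm38.p6. Capitals mark the ETS core CCGGAA or its complement TTCCGG, the letters that factors such as Etv5 bind.
Fgfr2, chr7:130266809-130267058, minus strand: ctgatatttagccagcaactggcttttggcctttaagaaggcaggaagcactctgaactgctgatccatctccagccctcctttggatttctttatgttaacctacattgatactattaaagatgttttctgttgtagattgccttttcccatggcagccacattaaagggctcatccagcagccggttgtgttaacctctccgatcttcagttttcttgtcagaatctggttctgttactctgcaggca
Egfr, chr11:16751953-16752202, plus strand: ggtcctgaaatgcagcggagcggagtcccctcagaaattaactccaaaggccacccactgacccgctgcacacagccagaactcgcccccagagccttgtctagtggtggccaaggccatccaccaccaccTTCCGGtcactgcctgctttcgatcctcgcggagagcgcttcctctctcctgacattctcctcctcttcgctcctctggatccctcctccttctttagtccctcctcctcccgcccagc
Etv5, chr16:22439571-22439820, minus strand: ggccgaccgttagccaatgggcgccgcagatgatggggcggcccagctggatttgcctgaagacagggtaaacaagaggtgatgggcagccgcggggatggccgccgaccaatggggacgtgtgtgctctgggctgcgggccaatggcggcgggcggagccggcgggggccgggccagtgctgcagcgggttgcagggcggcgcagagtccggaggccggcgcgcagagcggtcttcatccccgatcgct
The Egfr window holds the core once, beginning 119 bases before the start, and the Fgfr2 and Etv5 windows shown do not hold it. Among windows of 6 of the genes (Fgf12, Fgfr2, Fgfr3, Egfr, Etv5 and Spry2), 2 of 11 had it on either strand, the other one belonging to Fgf12, beside 12% of 32851 promoter windows of the same length (3952). A match is a description of letters only, and these arrays did not measure binding.

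Fgf1 encodes a secreted ligand that can activate all FGF receptors. In the cerebellum its log2 signal on arrays 1 to 5 was 5.18, 4.89, 3.55, 4.09 and 3.63. In the SVZ it was 3.94, 2.53, 3.55, 3.32 and 4.70. In the hippocampus it was 2.06, 1.78, 1.90, 1.76 and 1.97. The hippocampus arrays were all below every array of the other regions, and they were close together, with an SD of 0.13 that was the smallest of the 10 genes in that region. These hippocampal values were dim, at percentiles 66.7 to 73.3 of their arrays, where signal and background are hard to separate. The small SD and the fold below cerebellum rest on that dim signal. SVZ and cerebellum overlapped. The hippocampal mean of 1.89 ± 0.13 (SD) was 5.18-fold below the cerebellar mean of 4.27 ± 0.74, with a difference of -2.37 (95% interval -3.19 to -1.56, limma adjusted p = 0.00207). In the SVZ the mean was 3.61 ± 0.80 and the difference from cerebellum was -0.66 (-1.48 to 0.16, adjusted p = 0.338, limma). Against the hippocampus the SVZ was 1.71 higher (0.90 to 2.53), which did not pass (limma adjusted p = 0.311, unadjusted p = 0.000496). Arrays of those 2 regions did not overlap for Fgf1, which held for 1 of the 10 genes and for 0.813% of all genes.

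The Fgf1 result rests on its brightest probe set. A dimmer set, 1423136_at, averaged 2.27 ± 1.66 in hippocampus, with arrays from 1.06 to 4.84, and 3.06 ± 0.78 in cerebellum, so that the regions overlapped and the difference of -0.79 ± 0.66 did not pass (adjusted p = 0.519, limma over 34945 probe sets). A further set, 1441042_at, averaged 1.05 ± 0.43 and 1.03 ± 0.23, near the array medians. When the 3 sets were averaged before the fit, the hippocampal difference was -1.05 (limma adjusted p = 0.0622, in a range of 0.000956 to 0.0622 over the alternatives tried).

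Fgf12 encodes an FGF homologous factor that stays inside the cell, binds voltage-gated sodium channels and is not known as a classic receptor ligand. On arrays 1 to 5 it read 3.52, 2.58, 3.15, 3.17 and 2.37 in the cerebellum. The SVZ arrays read 1.93, 1.50, 0.69, 1.24 and 1.20, and the hippocampus arrays 2.01, 1.41, 1.24, 1.26 and 3.21. All SVZ arrays lay below all cerebellum arrays, as did 4 of the 5 hippocampus arrays, while hippocampus 5 lay among the cerebellum arrays. Groups that do not overlap between SVZ and cerebellum were found for 1 of the 10 genes and for 8.62% of all genes. The SVZ mean of 1.31 ± 0.45 was 3.13-fold below the cerebellar mean of 2.96 ± 0.47 (difference -1.65, 95% interval -2.44 to -0.85, limma adjusted p = 0.0179). The hippocampal mean of 1.83 ± 0.83 differed by -1.13 (-1.92 to -0.34), with an adjusted p of 0.102 in limma, and without hippocampus 5 by -1.48 (adjusted p = 0.0116, over the alternatives 0.0116 to 0.392).

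Fgf12 was dim, and the SVZ values lay near the array medians, where signal and background are hard to separate. The SVZ call was lost after quantile normalization (-1.37, adjusted p = 0.0932, limma) and with the spike-in level as a covariate (-1.87 ± 0.51, adjusted p = 0.140), in a range of 0.00337 to 0.140 over the alternatives. The other Fgf12 sets were dimmer and did not pass in SVZ against cerebellum. Set 1440270_at averaged 1.01 ± 0.35 and 1.72 ± 0.73, with overlap (-0.71 ± 0.30, limma adjusted p = 0.208). Set 1436432_at averaged 0.85 and 0.88 (limma adjusted p = 0.933). The summed signal of 10 neuronal markers ran from 5.33 to 8.14 in cerebellum, from 4.49 to 6.13 in SVZ and from 4.42 to 6.11 in hippocampus, with 0 of 10 called in either comparison by limma. Most of that sum was Snap25, a synaptic vesicle fusion gene, which averaged 5.72 ± 1.44 in cerebellum (7.94 on the highest array), 4.06 ± 1.86 in SVZ and 3.60 ± 1.57 in hippocampus. Nefl, a neurofilament gene, averaged 2.28 ± 0.89, 1.34 ± 0.53 and 1.47 ± 0.75 in the same order, so both had their highest mean in cerebellum, as Fgf12 did, and neither passed against either region (limma adjusted p 0.234 to 0.340). The other genes of the list had dim means. Syt1 (1.54) and Tubb3 (1.88) also had their highest mean in cerebellum, and Stmn2 had its highest in hippocampus (1.44). Rbfox3, Nefm, Gad1 and the vesicular glutamate transporter genes Slc17a7 and Slc17a6 had their lowest mean in cerebellum, at 0.69 to 1.35. Slc17a7 and Slc17a6 stayed at or below 1.23 on every array. The part of neuronal RNA in the Fgf12 result was not tested.

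Fgfr2 encodes a receptor for FGFs that is common in glia. In the cerebellum its log2 signal was 8.12, 9.10, 8.41, 9.63 and 8.76. In the SVZ it was 7.49, 8.12, 6.89, 7.77 and 7.52, and in the hippocampus 4.51, 7.12, 5.57, 7.19 and 7.58. Every hippocampus array was below every cerebellum array, with hippocampus 1 and 3 far below the others of that region, and SVZ 2 tied with the lowest cerebellum array. Fgf1 and Fgfr2 were the 2 of 10 genes whose hippocampus and cerebellum arrays did not overlap, beside 7.98% of all genes. The means were 7.56 ± 0.45 in SVZ, 6.39 ± 1.30 in hippocampus and 8.80 ± 0.59 in cerebellum. The hippocampal level was 5.31-fold below the cerebellar one (difference -2.41, 95% interval -3.51 to -1.31, limma adjusted p = 0.0148). In the SVZ the difference from cerebellum was -1.25 (-2.35 to -0.14, adjusted p = 0.185, limma), and it was 1.16 from hippocampus (0.06 to 2.27, adjusted p = 0.699).

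The second Fgfr2 probe set, 1420847_a_at, had the same order of means, 5.98 ± 1.45, 5.35 ± 1.89 and 7.48 ± 0.34, but overlapped between hippocampus and cerebellum and did not pass (-2.13 ± 0.82, limma adjusted p = 0.173). The brightest set, 1433489_s_at, has probes that match more than 1 transcript, which its suffix _s_at marks. Its hippocampal call was lost with the spike-in covariate, whose level went largely with region (-1.70, limma adjusted p = 0.355). It was also lost, narrowly, without SVZ 4 and hippocampus 3, the arrays least like the rest of their regions (-2.20, limma adjusted p = 0.0504). Over all alternatives its adjusted p lay between 0.00306 and 0.355. In SVZ against cerebellum Fgfr2 passed in a fit of those 2 regions alone (limma adjusted p = 0.0425) and with its probe sets averaged (-0.94, adjusted p = 0.0487), in a range of 0.0425 to 0.936.

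Fgfr3 and Fgfr1 encode 2 further FGF receptors. Fgfr3 ran from 6.53 to 7.99 in SVZ, 6.46 to 8.19 in hippocampus and 5.97 to 7.23 in cerebellum. Means were 7.37 ± 0.55, 7.36 ± 0.64 and 6.58 ± 0.50, and the regions overlapped. Fgfr3 thus had its lowest mean where Fgfr2 had its highest, by 0.79 against SVZ (95% interval 0.05 to 1.53, limma adjusted p = 0.206) and 0.78 against hippocampus (0.04 to 1.51, adjusted p = 0.224), and neither passed. Between SVZ and hippocampus its difference was 0.01 with an interval of -0.72 to 0.75. Fgfr1 ran from 2.43 to 6.97 in SVZ, 5.14 to 6.81 in hippocampus and 4.51 to 6.96 in cerebellum, and the low value belonged to SVZ 4 alone, the other SVZ arrays starting at 5.66. Its means of 5.47 ± 1.76, 5.96 ± 0.75 and 5.97 ± 1.02 differed from cerebellum by -0.50 (-2.09 to 1.08) in SVZ and by -0.006 (-1.59 to 1.58) in hippocampus, so that a 2-fold difference either way lies inside both intervals. Without SVZ 4 the SVZ difference was 0.26.

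Egfr encodes the EGF receptor. Its SVZ arrays read 4.94, 5.55, 5.57, 6.29 and 7.94, against 4.60, 1.85, 4.73, 4.69 and 5.11 in hippocampus and 4.79, 4.15, 4.57, 5.30 and 4.68 in cerebellum. SVZ 5 was the highest of all arrays and hippocampus 2 the lowest, and 4 of the 5 SVZ arrays were above every hippocampus and cerebellum array. The SVZ mean of 6.06 ± 1.16 was 1.36 above cerebellum (4.70 ± 0.41, 95% interval 0.04 to 2.68) and 1.86 above hippocampus (4.20 ± 1.33, interval 0.54 to 3.19). Neither difference passed (limma adjusted p = 0.224 and 0.531).

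A dimmer Egfr probe set, 1435888_at, did pass in SVZ against cerebellum, with a rise of 1.31 ± 0.28 (limma adjusted p = 0.0161 over 34945 probe sets). Its means were 3.86 ± 0.57 in SVZ, 2.19 ± 0.23 in hippocampus and 2.56 ± 0.51 in cerebellum. The SVZ arrays, from 3.21 to 4.48, did not overlap with the hippocampus arrays, from 1.95 to 2.57, although that difference of 1.67 ± 0.28 did not pass (adjusted p = 0.173, limma). The probe sets of Egfr disagreed on the hippocampus: in 1460420_a_at its mean of 4.06 ± 0.93 and in 1451530_at its mean of 3.90 ± 2.31 were above the SVZ means of 3.59 ± 1.40 and 2.94 ± 1.47. Markers of transit amplifying cells and neuroblasts, cells in which Egfr is known, had summed signals of 7.96 to 9.02 in SVZ, 7.48 to 9.19 in hippocampus and 5.66 to 6.81 in cerebellum, with 1 of 5 called higher in each of the first 2 regions, and their part in the Egfr values was not tested. The sum was mostly Stmn1 (8.23, 7.84 and 6.15), the gene called in both, while the more specific Dcx, Dlx1 and Dlx2 had means of 0.84 to 1.41 in all regions, near the array medians. Sox11 was higher in the forebrain, with means of 3.60 ± 2.05 in SVZ, 3.53 ± 1.16 in hippocampus and 0.82 ± 0.19 in cerebellum, but was not called.

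Etv5 and Etv4 encode ETS transcription factors induced by FGF signalling. Etv5 read 5.63, 6.97, 5.64, 6.96 and 6.61 in cerebellum. It read 6.48, 5.15, 4.02, 7.12 and 4.88 in SVZ and 6.10, 3.71, 2.02, 3.31 and 4.13 in hippocampus. In the hippocampus 4 of 5 arrays were below every cerebellum array, and hippocampus 1 stood among them. The hippocampal mean of 3.85 ± 1.48 was 5.69-fold below the cerebellar mean of 6.36 ± 0.68, and the difference of -2.51 (95% interval -4.01 to -1.01) just missed the threshold (limma adjusted p = 0.0582, unadjusted p = 0.00301). The series design sets another rule, a change above 4-fold with unadjusted p below 0.01. Fgf1, Fgfr2 and Etv5 met it in hippocampus against cerebellum, 3 of 10 beside 2.87% of all genes, though the 10 were chosen with earlier results of these data known. None of the 10 met it in SVZ against cerebellum (3.21% of all genes) or in SVZ against hippocampus (0.357%). The SVZ mean of 5.53 ± 1.25 differed from cerebellum by -0.83 (-2.33 to 0.67, limma adjusted p = 0.513) and from hippocampus by 1.68 (0.17 to 3.18, adjusted p = 0.658).

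The other Etv5 probe sets passed in hippocampus against cerebellum. Set 1450082_s_at averaged 3.68 ± 0.81 in hippocampus and 6.59 ± 0.81 in cerebellum without overlap, and fell by 2.91 ± 0.74 (limma adjusted p = 0.0391). In SVZ, at 4.07 ± 1.84, its difference of -2.52 ± 0.74 did not pass (adjusted p = 0.0664, limma). As for the brightest Fgfr2 set, the suffix _s_at marks a set whose probes match more than 1 transcript. Set 1420998_at, dimmer, averaged 1.83 ± 0.34 and 3.29 ± 0.72 and fell by 1.46 ± 0.34 (adjusted p = 0.0256, limma), and in the SVZ, at 1.75 ± 0.56, it fell by 1.54 ± 0.34 (adjusted p = 0.0171). With the 3 sets averaged, the hippocampal decrease in Etv5 was -2.29 (limma adjusted p = 0.000163) and the SVZ one -1.63 (adjusted p = 0.00282). Over the alternatives the adjusted p of Etv5 ran from 0.000163 to 0.428 in hippocampus, where it passed without SVZ 3 (0.0486), without SVZ 4 (0.0443), without hippocampus 1 (0.0132), after median centring (0.0425), with only genes above a mean of 3 (0.0240) and with array weights (0.0184). In SVZ the range was 0.00282 to 0.954.

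**Figure D3:**
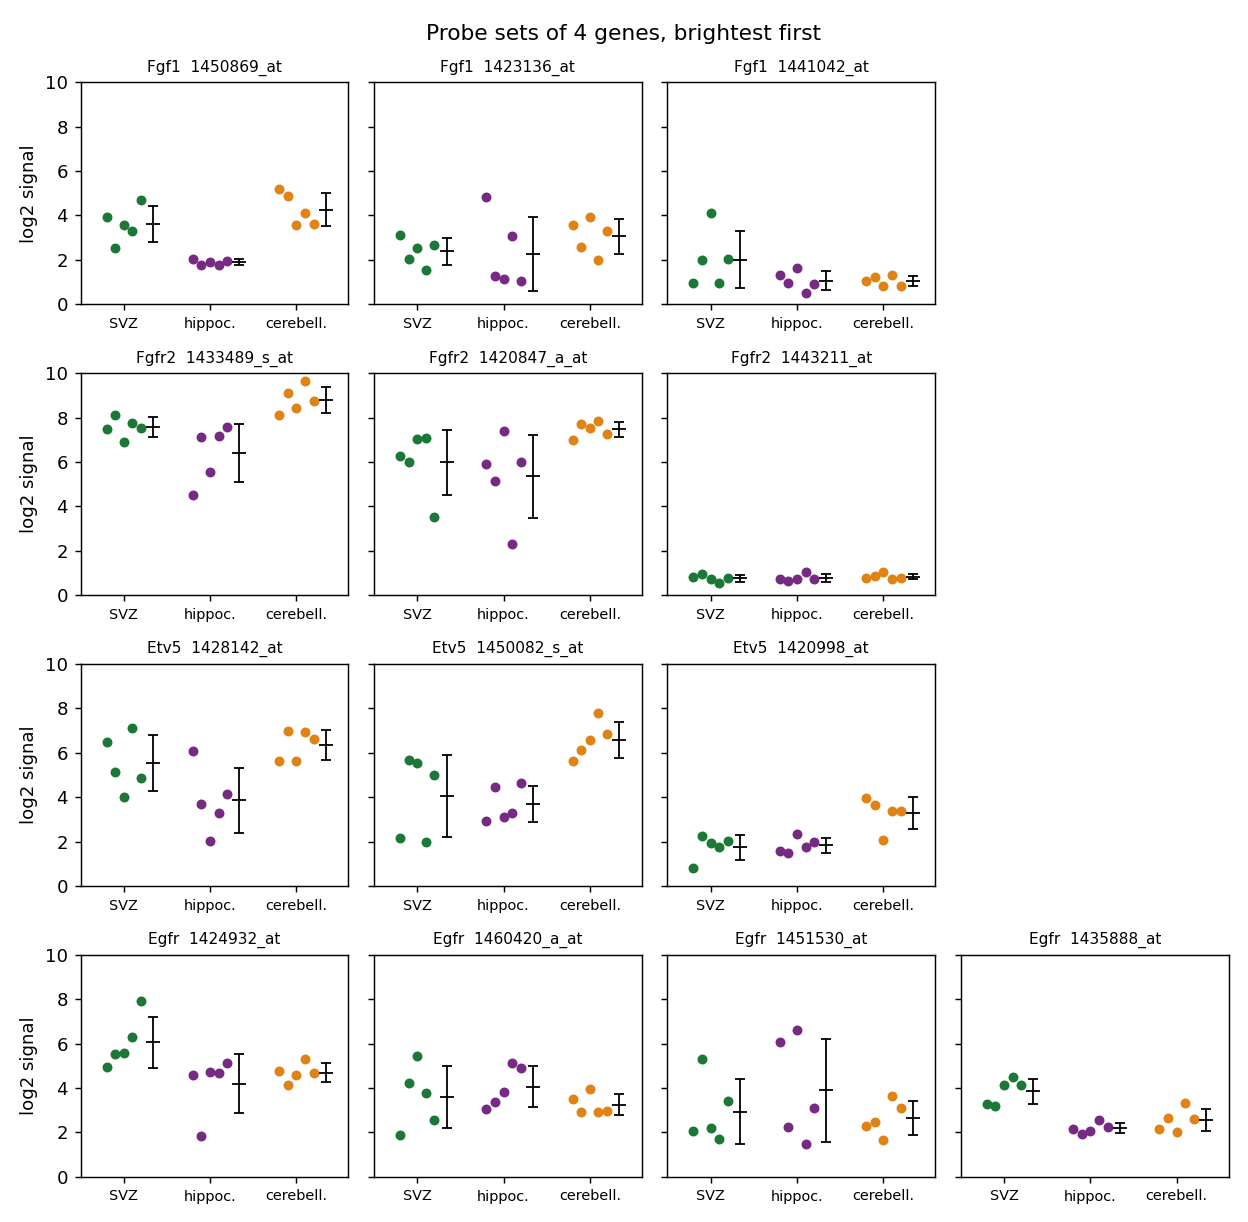
Log2 signal (vertical axis) of the probe sets of Fgf1, Fgfr2 and Etv5 and the 4 brightest of Egfr in the 5 arrays of each region, with points for arrays and bars for the mean and SD. The Etv5 sets have their highest mean in cerebellum (6.36, 6.59 and 3.29), while the low hippocampal values of Fgf1, 1.76 to 2.06 in its brightest set, spread from 1.06 to 4.84 in the next.

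Etv4 fell into high and low arrays within the forebrain regions. It read 1.87, 4.97, 1.73, 4.95 and 2.14 in SVZ, 1.79, 1.34, 5.26, 1.37 and 2.37 in hippocampus and 2.37, 3.73, 4.14, 3.97 and 4.09 in cerebellum. SVZ 2, SVZ 4 and hippocampus 3 were above every cerebellum array, and the other forebrain arrays were at or below the lowest one. The means of 3.13 ± 1.68, 2.43 ± 1.64 and 3.66 ± 0.74 gave differences from cerebellum of -0.53 (95% interval -2.32 to 1.26, limma adjusted p = 0.734) in SVZ and -1.23 (-3.02 to 0.56, adjusted p = 0.410) in hippocampus. In SVZ the SD of Etv4 was second to that of Fgfr1 (1.76), and in hippocampus it was the largest of the 10 genes. Over the 10 genes the median SD was 1.07 in hippocampus, 0.69 in SVZ and 0.63 in cerebellum, beside 1.00, 1.00 and 0.48 in the same order over all genes with a mean above 3.

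Spry2 and Spry4 encode Sprouty proteins, inhibitors of the cascade that the cascade itself induces. Spry2 ran from 4.78 to 5.75 in SVZ, 3.05 to 6.80 in hippocampus and 3.12 to 6.36 in cerebellum, and the SVZ arrays lay inside the ranges of both other regions. Its means were 5.15 ± 0.41, 4.74 ± 1.59 and 5.10 ± 1.20. The differences from cerebellum were 0.05 (95% interval -1.43 to 1.53) in SVZ and -0.36 (-1.84 to 1.12) in hippocampus, with limma adjusted p of 0.975 and 0.780. A dimmer Spry2 set, 1421656_at, averaged 4.42 ± 0.61, 2.78 ± 1.20 and 3.92 ± 0.49. In that set the SVZ was 1.64 ± 0.49 above hippocampus (limma unadjusted p = 0.00472, adjusted p = 0.543). Its hippocampal difference from cerebellum was -1.14 ± 0.49 (limma adjusted p = 0.222), and neither passed. Spry4 was dim everywhere, from 0.67 to 2.29 in SVZ, 1.13 to 2.57 in hippocampus and 1.31 to 2.22 in cerebellum, and its differences of -0.42 (-1.09 to 0.25) and -0.03 (-0.70 to 0.64) did not pass (adjusted p = 0.462 and 0.963, limma). No difference between regions was found in Spry4, at dim levels where signal and background are hard to separate.

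Over the 22 dimmer probe sets of the 10 genes, 19 had the sign of the brightest set in SVZ against cerebellum, 11 in hippocampus against cerebellum and 15 in SVZ against hippocampus. Among the 7 of them with a mean above 3, the counts were 7, 4 and 5. The calls among the 22 were those of Etv5 and Egfr given above.

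A wider list of 97 genes of the FGF, EGF and MAPK pathways, the 10 genes among them, had 88 measured genes, of which 31 had a mean above 3. In SVZ against cerebellum 0 of the 88 were called higher and 3 lower by limma, and in hippocampus against cerebellum 0 higher and 5 lower, beside 5.51% and 4.78% of all genes called. At an unadjusted p under 0.05, 12 and 6 were higher and 11 and 13 lower, beside 21.1% and 20.1% of all genes in either direction. Between SVZ and hippocampus 0 of 88 were called by limma (12 higher and 3 lower unadjusted, beside 7.02% of all genes). The list's median differences of 0.09, 0.03 and 0.04 were near those of all genes (0.07, 0.07 and -0.004). Calls without SVZ 3 or without hippocampus 2 rose to 5 in SVZ against cerebellum, and without hippocampus 2 to 9 in hippocampus against cerebellum.

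Among adaptors and the cascade, Gab2, a docking protein that links receptors to RAS and PI3K signalling, averaged 2.79 ± 0.98 in SVZ, 2.15 ± 1.37 in hippocampus and 5.82 ± 0.66 in cerebellum. It fell by 3.04 ± 0.62 in SVZ (limma adjusted p = 0.0106), with no overlap between arrays. Hippocampal cells showed a fall of the same kind, -3.68 ± 0.62 (adjusted p = 0.00292, limma), also without overlap. The SVZ call was lost with the spike-in covariate (-3.20 ± 0.87, limma adjusted p = 0.135, over the alternatives 0.00285 to 0.135). Map2k1, the kinase MEK1 that activates the MAP kinases ERK1 and ERK2, averaged 2.93 ± 0.98, 3.27 ± 0.64 and 4.56 ± 0.41 and fell by 1.63 ± 0.43 in SVZ (limma adjusted p = 0.0402). That call was lost without SVZ 1, without SVZ 4 or without any 1 of the cerebellum arrays (differences of -1.73 to -1.30, adjusted p 0.0542 to 0.106). It was also lost after quantile normalization (-1.23), with a trended and robust spread (-1.63), in a fit of only the regions compared (-1.63), with the spike-in covariate (-1.06) and without SVZ 4 and hippocampus 3 (-1.45). Over all alternatives the limma adjusted p lay between 0.0232 and 0.602. Plcg1, a phospholipase that receptors activate, was the brightest gene of this role and was not called.

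Among feedback inhibitors, Dusp6, a phosphatase that inactivates ERK and is itself induced by FGF signalling, averaged 4.59 ± 1.81 in SVZ, 2.63 ± 1.17 in hippocampus and 5.63 ± 0.23 in cerebellum. It fell by 3.00 ± 0.74 in hippocampus (limma adjusted p = 0.0322), and the call was lost without hippocampus 1, 3 or 4 or without any 1 of the cerebellum arrays (differences of -3.08 to -2.73, adjusted p 0.0614 to 0.0810). It was also lost after quantile normalization (-2.60), with the spike-in covariate (-2.40) and without SVZ 4 and hippocampus 3 (-2.90), with limma adjusted p of 0.00625 to 0.407 over all alternatives. Lrig1, a membrane protein that promotes degradation of EGF receptors, was the brightest inhibitor, with 8.86 ± 0.63, 7.80 ± 0.79 and 9.94 ± 0.68. It fell by 2.14 ± 0.42 in hippocampus (limma adjusted p = 0.00869), a call lost with the spike-in covariate (-2.05 ± 0.58, adjusted p = 0.148, over the alternatives 0.00337 to 0.148). In SVZ it differed by -1.08 ± 0.42, which did not pass (adjusted p = 0.160, limma).

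Of the other roles, 1 of 24 ligands (Fgf1) and 1 of 10 receptors (Fgfr2) were called in hippocampus against cerebellum, beside 4.78% of all genes. In SVZ against cerebellum 1 of 4 intracellular FGFs (Fgf12) was called, beside 5.51% of all genes. Of the targets, 0 of 16 were called in either by limma. At an unadjusted p under 0.05, 4 targets were higher and 0 lower in SVZ, a share near the 21.1% of all genes. Hbegf, an EGF family ligand and the brightest ligand beside Fgf1, averaged 4.06 ± 0.93 in SVZ, 2.67 ± 1.24 in hippocampus and 2.87 ± 0.45 in cerebellum. Its SVZ and cerebellum arrays did not overlap, and the difference of 1.18 ± 0.55 did not pass (limma adjusted p = 0.236). Fgf14, the decoy receptor gene Fgfrl1 and the transcription factor gene Jun, the brightest of their roles beside the 10 genes, were not called in any comparison.

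**Figure D4:**
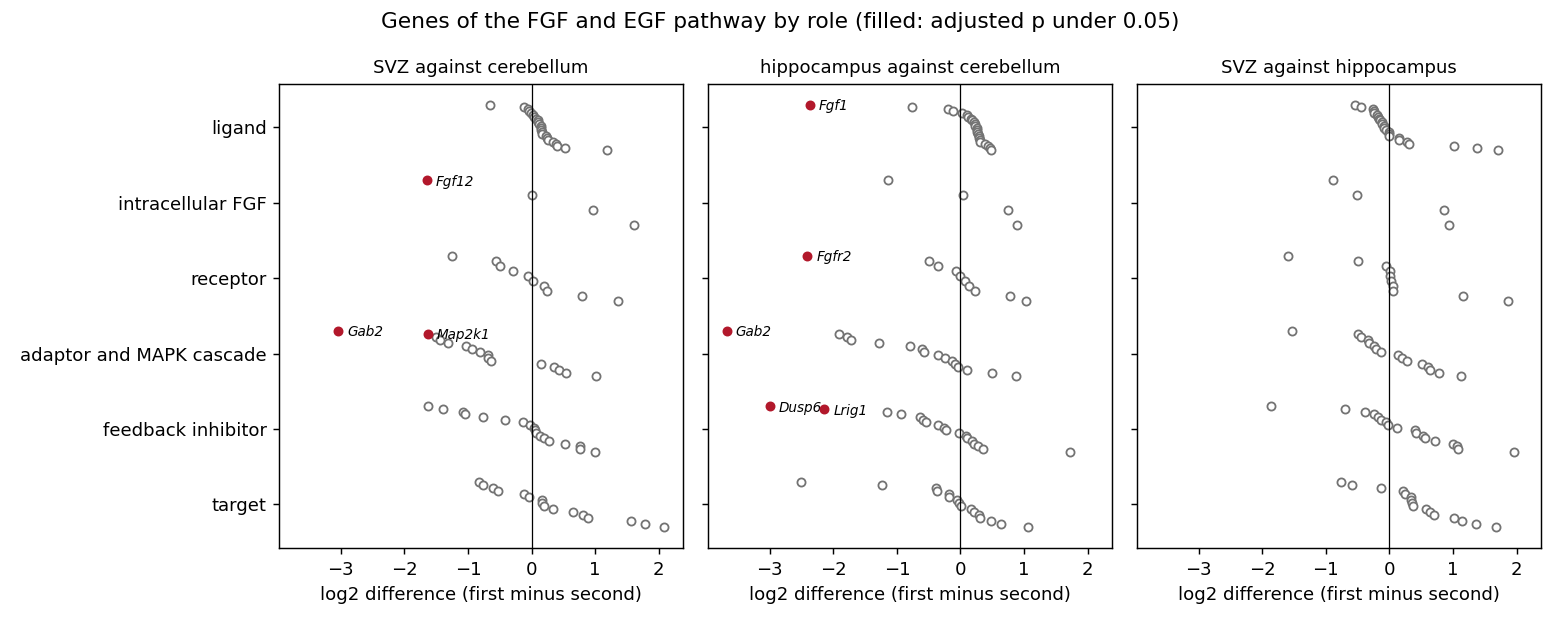
Log2 difference between regions of the 88 measured pathway genes by role (horizontal axis, first region minus second), 1 point per gene, in the 3 comparisons, with called genes filled and named. The called genes, 3 in SVZ and 5 in hippocampus against cerebellum, all lie below 0, and the other genes lie on both sides of 0.

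For the 3 genes called in any comparison, the genes most alike in pattern were ranked by Pearson's r over the 15 arrays among genes with a mean above 3. The arrays fall into 3 regions, so the values describe these arrays only. Fgf1 was closest to Pea15a (r = 0.927), Bmpr1a (0.875) and Septin8 (0.853). Fgf12 was closest to Samd4 (0.900), Gphn (0.832) and Coa8 (0.829). Fgfr2 was closest to Paqr4 (0.898), Mtres1 (0.892) and Fubp3 (0.891).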

How the data were processed

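Affymetrix mouse arrays of amplified RNA (WT-Ovation Pico, per the labels' protocols) were deposited as log2 values that the authors normalized with RMA, per the submitters' processing notes. The log base is read from the range of the values, and no RMA version is given in the sources used here. Of 45101 probe sets, 34958 had 1 gene symbol, 932 several and 9211 none, and 34754 symbols were updated through Entrez identifiers. The 64 control probe sets were left out, and 18193 genes were tested, 9010 of which had several probe sets.

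Region was fitted with limma 3.58.1 (R 4.3.3, data.table version 1.17.8) over all 15 arrays with no block. p-values were adjusted over all genes. No detection calls were used, and the number of arrays limits precision. The fit was tested on simulated data. Promoters came from RefSeq (GRCm38.p6), and figures from matplotlib 3.10.9 in Python 3.11.15.

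The genes and the lists were chosen with earlier results of these data known. Named pathway genes were those called in any comparison and, per role, the brightest gene outside the 10. Alternatives were quantile normalization, median centring, a filter on dim genes (mean above 3 kept), probe sets averaged per gene, a trended and robust spread, array weights, a fit of only the regions compared, a block for the replicate number, and each array left out. Added after seeing the data were the rule of the series design, a spike-in covariate, and leaving out SVZ 4 with hippocampus 3. The spike-in level went largely with region, so calls and signs under that covariate cannot separate the level from region.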

Additional observations from a re-analysis of the deposited data

Results flagged for a closer look

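In 6 of 57 groups of 5 arrays examined, 1 array stood apart from the others by more than Dixon's limit (gap over range above 0.71), where chance marks about 1 in 20 groups. Fgfr1 was 2.43 in SVZ 4, with the next array at 5.66 (gap over range 0.711). Egfr was 1.85 in hippocampus 2, with the next at 4.60 (0.844). Etv4 was 5.26 in hippocampus 3, with the next at 2.37 (0.737), and 2.37 in cerebellum 1, with the next at 3.73 (0.768). Hbegf was 5.66 in SVZ 1, with the next at 3.89 (0.750). Plcg1 was 3.91 in hippocampus 1, with the next at 5.85 (0.752).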

How the results depend on the processing

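With 5 pools per region and no detection calls, dim genes such as Fgf12 and Spry4 have differences limited by signal over background. The labels do not say that replicate numbers pair the arrays, so they were treated as unpaired. Deviations of same-numbered arrays correlated between -0.12 and 0.14, over 0.1 in 4 of 15 pairs, and such small values do not exclude a pairing. An array's own number was its best match in another region in 17 of 30 checks, where 6 would follow from numbers that carry nothing. That is a hint of pairing from the data and not from the design. With the replicate number as a block the genes called among the 10 were 1 (SVZ against cerebellum), 3 (hippocampus against cerebellum) and 0 (SVZ against hippocampus), and Etv5 in hippocampus passed (limma adjusted p = 0.0428), while Map2k1 in SVZ against cerebellum was no longer called (-1.63, adjusted p = 0.0713). Median centring moved the median difference of all genes by -0.10 in SVZ and -0.11 in hippocampus. Fgf12 and Spry4 have no value where only genes with a mean above 3 were kept.

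Calls in SVZ-cerebellum, hippocampus-cerebellum and SVZ-hippocampus were 1, 2 and 0 among the 10 genes, and 3, 5 and 0 among the pathway list, and 1002, 869 and 4 among all genes. Counts that moved by more than 1.5 times follow. After quantile normalization, calls were 0 in SVZ-cerebellum among the 10 genes, 609 in SVZ-cerebellum and 492 in hippocampus-cerebellum among all genes. After median centring, calls were 8 in hippocampus-cerebellum among the pathway list. With only genes whose mean is above 3, calls were 0 in SVZ-cerebellum among the 10 genes, 8 in hippocampus-cerebellum among the pathway list, 0 in SVZ-hippocampus among all genes. With a gene's probe sets averaged, calls were 3 in SVZ-cerebellum among the 10 genes, 10 in SVZ-cerebellum and 10 in hippocampus-cerebellum among the pathway list, 0 in SVZ-hippocampus among all genes. With a trended and robust spread, calls were 0 in SVZ-hippocampus among all genes. With array weights, calls were 5 in SVZ-cerebellum and 9 in hippocampus-cerebellum among the pathway list, 1561 in SVZ-cerebellum among all genes. With only the regions compared, calls were 2 in SVZ-cerebellum among the 10 genes, 8 in hippocampus-cerebellum among the pathway list, 0 in SVZ-hippocampus among all genes. Under the rule of the series design, calls were 0 in SVZ-cerebellum among the 10 genes, 1 in SVZ-cerebellum among the pathway list, 584 in SVZ-cerebellum and 522 in hippocampus-cerebellum and 65 in SVZ-hippocampus among all genes. With the spike-in covariate, calls were 0 in SVZ-cerebellum and 1 in hippocampus-cerebellum among the 10 genes, 0 in SVZ-cerebellum and 2 in hippocampus-cerebellum among the pathway list, 198 in SVZ-cerebellum and 226 in hippocampus-cerebellum and 2 in SVZ-hippocampus among all genes. Without SVZ 4 and hippocampus 3, calls were 1 in hippocampus-cerebellum among the 10 genes, 3 in hippocampus-cerebellum among the pathway list, 1 in SVZ-hippocampus among all genes. With 1 array left out at a time the calls ranged from 1 to 11 of all genes in SVZ-hippocampus, 2 to 5 of the pathway list in SVZ-cerebellum, 4 to 9 of the pathway list in hippocampus-cerebellum, 545 to 1162 of all genes in hippocampus-cerebellum, 612 to 1094 of all genes in SVZ-cerebellum.

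Of 1473 values of single genes under an alternative, 1366 kept direction and side of the threshold, 31 lost and 14 gained a call, and 62 changed sign. The cause was not tested. After quantile normalization, sign changes were Fgfr1 0.44, Egfr 0.084, Spry2 0.13, Spry4 0.17, Hbegf 0.11, Jun 0.19 in hippocampus-cerebellum and Fgfr3 -0.012 in SVZ-hippocampus. After median centring, sign changes were Spry2 -0.054 in SVZ-cerebellum. With a gene's probe sets averaged, sign changes were Jun -0.14 in SVZ-cerebellum and Fgfr1 0.11, Egfr 0.31, Spry4 0.024 in hippocampus-cerebellum and Fgf14 -0.011 in SVZ-hippocampus. With array weights, sign changes were Spry2 -0.13 in SVZ-cerebellum. With the spike-in covariate, sign changes were Fgfr1 0.44, Etv4 0.28, Spry4 0.070 in SVZ-cerebellum and Fgfr1 0.88, Spry4 0.43, Fgf14 -0.16, Hbegf 0.17, Jun 1.02 in hippocampus-cerebellum. Without SVZ 4 and hippocampus 3, sign changes were Fgfr1 0.26, Spry2 -0.0045, Fgfrl1 0.33 in SVZ-cerebellum and Hbegf 0.14 in hippocampus-cerebellum and Fgfr1 0.47, Fgfr3 -0.16, Fgf14 -0.42 in SVZ-hippocampus. With 1 array left out at a time the ranges were Jun -0.029 to 0.61, Spry2 -0.45 to 0.36, Fgfr1 -0.88 to 0.26, Fgfrl1 -1.23 to 0.33 in SVZ-cerebellum and Fgfr3 -0.21 to 0.23, Fgfr1 -0.87 to 0.26, Fgf14 -0.39 to 1.43, Plcg1 -0.32 to 0.33, Spry2 -0.013 to 0.92 in SVZ-hippocampus and Spry4 -0.21 to 0.14, Hbegf -0.59 to 0.14, Jun -0.56 to 0.079, Fgfr1 -0.37 to 0.24, Egfr -0.73 to 0.085, Spry2 -0.87 to 0.063 in hippocampus-cerebellum.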
